A study of Homo sapiens with 14 samples.

Results

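Messenger RNA levels of 37 genes of the NRF2 pathway were followed in 2 human cancer cell lines treated with inhibitors of the cell cycle. The 37 genes were NFE2L2, which encodes the transcription factor NRF2, its sensor KEAP1, the adaptor SQSTM1 and genes known to be switched on by NRF2 in antioxidant defence and detoxification. They were taken by gene symbol from the 60683 gene identifiers of the read count tables, and each symbol matched a single identifier. The study asked whether blocking CDK2 together with CDK4 and CDK6 drives cancer cells into senescence, a lasting arrest of proliferation. A549, a lung cancer line kept in RPMI with fetal bovine serum, was analysed without treatment, after 10 days of 2 μM palbociclib (an inhibitor of CDK4 and CDK6), after 10 days of 0.5 μM indisulam (a sulfonamide known to cause degradation of the splicing factor RBM39), after 10 days of both drugs (the combination), and after 7 days of 0.5 μM PF-06873600 (which inhibits CDK4 and CDK6 as well as CDK2). SUM159, a triple-negative breast cancer line kept in DMEM/F12 with fetal bovine serum, insulin and hydrocortisone, was analysed without treatment and after 7 days of 0.5 μM PF-06873600. The labels used here give no day for the untreated cells of either line, so drug and time in culture cannot be told apart. Each of the 7 groups had 2 libraries, which the design text calls technical duplicates, so the p-values measure only the spread between such libraries. The libraries held 13060374 to 21149256 reads on genes, and 3 counts were taken as the floor below which a level is not resolved. Levels are given as CPM, a gene's count scaled to the library's total count on genes.

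NRF2 is made continuously, and in unstressed cells KEAP1, an adaptor of a CUL3 ubiquitin ligase, binds it and passes it on for destruction. Oxidants and electrophiles modify KEAP1, so that NRF2 accumulates, pairs with a small MAF protein and binds antioxidant response elements near its target genes. The targets supply glutathione, thioredoxin and NADPH, sequester iron and reduce or conjugate reactive carbonyls and quinones. A549 cells are known to carry an inactivating KEAP1 mutation, and high NRF2 activity is a hallmark of this line and of other lung cancers with such mutations.

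The 2 lines carried the markers of their labels in part. In untreated A549 cells the summed level of 5 epithelial markers (EPCAM, CDH1, KRT8, KRT18, KRT19) was 4672 to 5429 CPM, while 3 of 4 surfactant and alveolar genes (NKX2-1, SFTPB, SFTPC) had at most 3 counts. In untreated SUM159 cells the epithelial sum was 699 to 755 CPM with CDH1 at or under 3 counts, the sum of 4 mesenchymal markers (VIM, ZEB1, CDH2, FN1) was 7333 to 7776 CPM, and of the 3 hormone receptor genes PGR was at or under 3 counts, ESR1 had 5 and 1 counts and ERBB2 was at 122 and 118 CPM. Leukocyte markers summed to at most 20.6 CPM in any library. The sources used here do not give the use of strand in counting. Exons overlapped a gene on the other strand over 71.1% in CBR3, 63.2% in FTH1, 29.8% in PRDX1 and 24.8% in NFE2L2. If strand was not used, reads in the shared bases may have been set aside as ambiguous, which would lower these counts. Under other settings part of the counts may belong to the partner gene.

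An antioxidant response element core, written TGACNNNGC where N is any base, was searched on both strands of a single window per gene. The window ran from 250 bases before to 50 bases after a RefSeq transcription start on GRCh38.p14. Other starts of a gene and more distant elements were not searched. The table held this window for 29 of the 37 genes and not for GSR, SLC7A11, HMOX1, FTH1, PRDX1, AKR1B10, CBR3 and TRIM16L. The core was found in 8 of the 29 windows, or 27.6%, beside 3702 of 27305 windows of all genes in the table, or 13.6%. The 8 genes were GPX2, PIR, CYP4F11, PGD, TXNRD1, GCLM, ME1 and CBR1. A match describes the letters of a window only, and binding was not measured. The matches of 5 genes are shown, 4 whose mRNA was at most 0.490 of its untreated level after the combination in A549 and TXNRD1, which was higher, with the matched core in capitals and 30 bases in each:
GPX2, glutathione peroxidase, chr14:64942848-64942877, plus strand, 122 bases before the start: catccccaggaTGACTTAGCaaaaacaggt
PIR, pirin, chrX:15493288-15493317, plus strand, 26 bases after the start: tagcctcaccgTGACTCAGCgcttcgcggc
CYP4F11, a fatty acid hydroxylase, chr19:15935004-15935033, plus strand, 156 bases before the start: ccagctcagggTGACACAGCatgggcacag
PGD, 6-phosphogluconate dehydrogenase, chr1:10398853-10398882, minus strand, 201 bases before the start: gagcacctagaTGACATTGCcccggcgagg
TXNRD1 upstream match, chr12:104215670-104215699, plus strand, 99 bases before the start: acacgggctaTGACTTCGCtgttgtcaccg
TXNRD1 downstream match, chr12:104215761-104215790, minus strand, 8 bases before the start: cctgtgggaacTGACGGAGCcgaaggacgc
Of the 8 genes with the core, TXNRD1 alone was higher after the combination, and the others were lower, as were most of the 37 genes. The matches of GCLM, ME1 and CBR1 are not shown. GCLM and ME1 fell less than the 4 lowered genes shown, so the core did not go with a large fall throughout. Distances run from the most upstream base of the core to the start site.

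Untreated A549 cells held far more NRF2 target mRNA than untreated SUM159 cells for most of the genes, with HMOX1 and AKR1B1 higher in SUM159. The mRNA of NRF2 itself and that of KEAP1 each differed little between the lines. The 37 genes together took 4.54% ± 0.11 (SD, n = 2) of all counts in untreated A549 cells and 1.11% ± 0.047 (SD, n = 2) in untreated SUM159 cells. Levels of different genes were scaled per kilobase of exon. Exons of all annotated transcripts were merged, which can exceed the length of the mRNA, so the order of genes is approximate. The highest level in A549 belonged to FTL, the light chain of the iron store ferritin, at 10535.5 ± 209 CPM per kilobase (SD, n = 2). AKR1B10, a reductase of retinal and reactive aldehydes, came next at 3656 ± 148 CPM per kilobase, before the ferritin heavy chain FTH1 at 1738 ± 13.7. NQO1, the quinone reductase that is the standard readout of NRF2 activity, and GPX2, a glutathione peroxidase, followed at 1167 ± 53.0 and 1141 ± 20.3 CPM per kilobase and did not differ beyond their spread. In SUM159 FTL and FTH1 had the highest levels, at 1537 ± 42.2 and 1485 ± 123 CPM per kilobase without a difference beyond their spread, followed by the peroxidase PRDX1 at 336 ± 6.08. The place of PRDX1 rests on the scaling, since without it TXNRD1 (1040 CPM), TKT (917) and AKR1B1 (821) stood above PRDX1 (565).

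In a joint model of both lines, 31 of the 37 genes were lower and 3 were higher in untreated SUM159 than in untreated A549 cells at an adjusted p under 0.05. Of all 16707 genes tested, 79.3% differed, 36.4% lower and 42.8% higher. The median log2 fold change of the 37 genes was -1.47, beside 0.12 over all genes. The 2 lines differ in tissue, medium and genotype as well as in KEAP1, and these cannot be told apart. Adjusted p-values are those of the edgeR quasi-likelihood test, adjusted after Benjamini and Hochberg over all genes tested, except where DESeq2 is named, and fold changes are followed by their standard error (SE).

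Of the regulators, NFE2L2 and KEAP1 differed little. NFE2L2 was at 125 and 138 CPM in the 2 untreated A549 libraries and 163 and 151 CPM in the 2 untreated SUM159 libraries, a log2 fold change of 0.25 ± 0.072 (SE, edgeR adjusted p = 0.00502). That small excess in SUM159 was lost with DESeq2 (0.14, adjusted p = 0.185) and without SUM159 untreated replicate 1 (0.20, edgeR adjusted p = 0.0574). KEAP1 was at 91.8 and 85.3 CPM in A549 and 90.9 and 87.4 CPM in SUM159, and its values overlapped between the lines. SQSTM1, which encodes the selective autophagy receptor p62 that ties up KEAP1, was lower in SUM159, at 324 and 306 CPM against 1459.9 and 1363 CPM in A549.

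AKR1B10, GPX2 and NR0B1 were abundant in A549 and near the floor or at a few CPM in SUM159. AKR1B10 stood at 6296 and 6667 CPM in A549 and 3.92 and 3.57 CPM in SUM159, a log2 fold change of -10.75 ± 0.11 (SE, edgeR adjusted p = 8.42e-17). GPX2 stood at 1509 and 1548 CPM in A549 and 0.724 and 0.188 CPM in SUM159, where the libraries had 12 and 3 counts. NR0B1, a nuclear receptor without a DNA-binding domain that is expressed in KEAP1-mutant lung cancer, was at 60.8 and 56.1 CPM in A549 and at or under 3 counts in all 4 SUM159 libraries, at least 317-fold lower. UGT1A6, a glucuronosyltransferase, was at or under 3 counts in both untreated SUM159 libraries and at least 54.4-fold lower than in A549. NQO1 was at 3356 and 3578 CPM in A549 and 376 and 356 CPM in SUM159, 0.105 of the A549 level (log2 fold change -3.25 ± 0.072, SE). The 3 neighbouring aldo-keto reductase genes AKR1C1, AKR1C2 and AKR1C3, which reduce steroids and lipid aldehydes, stood at 0.0312, 0.0459 and 0.0374 of their A549 levels.

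Higher in SUM159 were HMOX1 and AKR1B1 besides NFE2L2. HMOX1, heme oxygenase, which opens the heme ring, was at 16.4 and 14.4 CPM in A549 and 189 and 199.6 CPM in SUM159, a 12.6-fold difference (log2 fold change 3.66 ± 0.083, SE, edgeR adjusted p = 1.95e-14). AKR1B1, aldose reductase, was at 506 and 500.0 CPM in A549 and 827 and 816 CPM in SUM159. CBR3, KEAP1 and SRXN1 did not pass the threshold. FTH1 passed as lower in SUM159 (log2 fold change -0.23 ± 0.074, SE), but not when the compared groups were fitted alone (edgeR adjusted p = 0.0864) or without SUM159 untreated replicate 2 (-0.15, edgeR adjusted p = 0.0738).

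**Figure D1:**
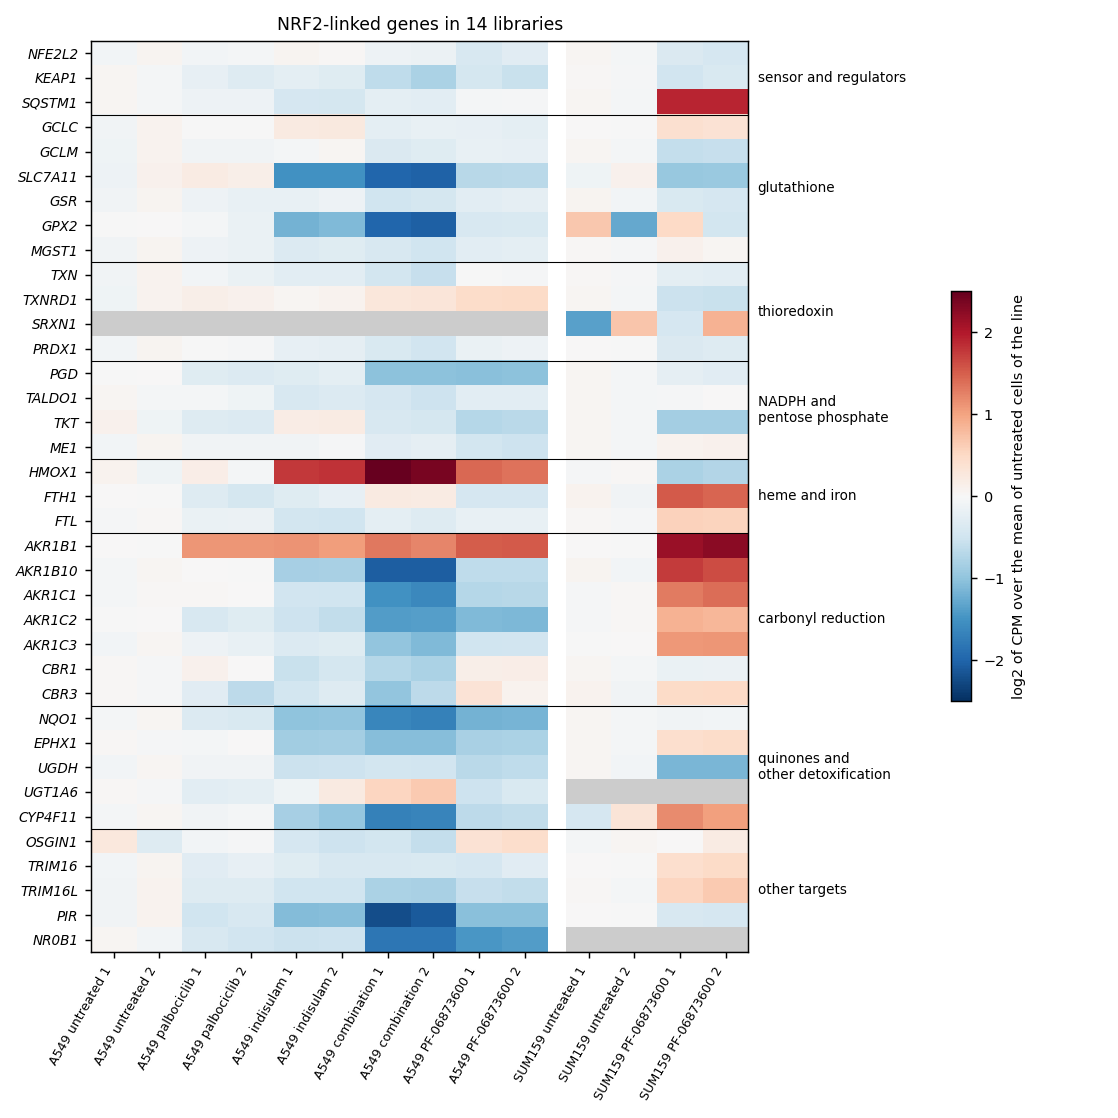
Heat map of the 37 genes (vertical axis, grouped by role) in the 14 libraries (horizontal axis), as log2 of the CPM over the mean CPM of the untreated libraries of the same line. Grey marks genes with at most 3 counts in each untreated library of the line. PIR, AKR1B10, GPX2, SLC7A11, NR0B1, CYP4F11 and NQO1 are dark blue in the 2 combination libraries of A549. In A549 HMOX1 is red after indisulam, the combination and PF-06873600, and AKR1B1 is red after these and after palbociclib. In SUM159 SQSTM1, FTH1 and AKR1B1 are red after PF-06873600.

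Palbociclib alone moved 12 of the NRF2 genes in A549, mostly down. At an adjusted p under 0.05, 2 of the 37 genes were higher and 10 lower than in untreated cells, beside 15.7% of the 15780 genes tested, 8.3% higher and 7.4% lower. The median log2 fold change was -0.11, and -0.0056 over all genes. The treated groups of A549 were all compared with the same 2 untreated libraries, so these comparisons are not independent of each other. The 2 higher genes were AKR1B1, at 1074 and 1086 CPM against 506 and 500.0 CPM in untreated cells (log2 fold change 1.10 ± 0.055, SE, edgeR adjusted p = 2.63e-08), and SRXN1. SRXN1, sulfiredoxin, which repairs overoxidised peroxiredoxins, had 2 counts in each untreated library and 0.668 and 0.854 CPM after palbociclib, at least 3.77-fold higher. Both palbociclib libraries lay above both untreated libraries for either gene. The SRXN1 call was lost without A549 palbociclib replicate 2 (edgeR adjusted p = 0.0983). SRXN1 shares 90.7% of its exon bases with a readthrough gene on the same strand whose identifier had 0 counts in every library. Reads in the shared bases may have been set aside as ambiguous. The low counts of SRXN1 in all groups may therefore not show its level, and its fold changes rest on the few reads left.

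Among the 10 lower genes the lowest fold changes were those of PIR, NR0B1 and FTH1. PIR, which encodes the quercetinase pirin, was at 62.9 and 67.5 CPM after palbociclib and 83.6 and 95.1 CPM before (log2 fold change -0.45 ± 0.075, SE, edgeR adjusted p = 0.000800). NR0B1 was at 44.2 and 42.2 CPM against 60.8 and 56.1 CPM (-0.44 ± 0.072, SE). FTH1 was at 2786 and 2573 CPM against 3503 and 3464 CPM (-0.38 ± 0.056, SE). For these genes the palbociclib libraries lay below the untreated ones. NQO1 was at 2749 and 2665 CPM against 3356 and 3578 CPM, and NFE2L2, at 126 and 128 CPM, lay within the untreated range. None of the 6 glutathione genes passed the threshold, with log2 fold changes from -0.16 to 0.18. The remaining lower genes were AKR1C2, PGD, TKT, TRIM16, TRIM16L and KEAP1, with log2 fold changes from -0.35 to -0.25. The calls of KEAP1 and TRIM16 were lost with DESeq2, and singly without A549 untreated replicate 1 and A549 palbociclib replicate 2 (KEAP1, edgeR adjusted p = 0.0542 and 0.202) or without A549 untreated replicate 2 and either palbociclib library (TRIM16, 0.0970, 0.173 and 0.0817). The counts depended on single libraries: 16 genes were lower without A549 untreated replicate 1, 4 were higher without A549 untreated replicate 2, and 1 was higher without A549 palbociclib replicate 2.

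Indisulam alone lowered most of the NRF2 genes in A549. At an adjusted p under 0.05, 25 of the 37 genes were lower and 5 higher than in untreated cells, beside 45.5% of all genes tested, 17.5% lower and 28% higher. The median log2 fold change was -0.35 and that of all genes 0.080. With TMM factors in place of total counts the higher share of all calls went from 61.6% to 50.4%, and 3 rather than 5 of the NRF2 genes were higher.

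The cystine transporter SLC7A11, which brings in the precursor of glutathione, fell furthest. It was at 163 and 162 CPM after indisulam and 426 and 503 CPM in untreated cells (log2 fold change -1.51 ± 0.070, SE, edgeR adjusted p = 5.96e-10). GPX2 was at 677 and 708 CPM against 1509 and 1548 CPM (-1.14 ± 0.056, SE, edgeR adjusted p = 1.06e-09), and PIR at 42.2 and 42.8 CPM against 83.6 and 95.1 CPM (-1.07 ± 0.077, SE, edgeR adjusted p = 6.10e-08). In each of these genes both indisulam libraries lay below both untreated libraries. NQO1 was at 1718 and 1739 CPM, 0.499 of the untreated level. The xenobiotic epoxide hydrolase EPHX1, CYP4F11, AKR1B10 and UGDH, which makes the donor for glucuronidation, had log2 fold changes of -0.86, -0.89, -0.83 and -0.53. Of the 7 carbonyl reductases 5 were lower, and all 5 genes of the heterogeneous group OSGIN1, TRIM16, TRIM16L, PIR and NR0B1 were lower. The call of OSGIN1, an inhibitor of cell growth, was lost without A549 untreated replicate 1, where its log2 fold change was -0.14 and not -0.46, and without A549 indisulam replicate 2 (edgeR adjusted p = 0.0763). KEAP1 (edgeR adjusted p = 0.0673) and PRDX1 (edgeR adjusted p = 0.0503) also lost their lower calls without A549 indisulam replicate 2.

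The genes that were higher after indisulam were HMOX1, AKR1B1, SRXN1, GCLC and TKT. HMOX1 was at 52.8 and 54.2 CPM against 16.4 and 14.4 CPM, 3.47-fold higher (log2 fold change 1.79 ± 0.10, SE, edgeR adjusted p = 3.80e-09). AKR1B1 was at 1091 and 1037 CPM against 506 and 500.0 CPM (1.08 ± 0.055, SE, edgeR adjusted p = 1.53e-09). SRXN1 was at 0.415 and 0.727 CPM, at least 2.83-fold higher, a call lost with DESeq2 (adjusted p = 0.128), without either untreated library (edgeR adjusted p = 0.0633 and 0.0716) and without A549 indisulam replicate 2 (edgeR adjusted p = 0.158). GCLC, the catalytic subunit of glutamate-cysteine ligase, and the transketolase TKT had log2 fold changes of 0.23 and 0.19. Both calls were lost with TMM factors (0.15 and 0.11) and with DESeq2 (0.16 and 0.12), and that of TKT also without A549 untreated replicate 2 (0.091, edgeR adjusted p = 0.141) and without either indisulam library (edgeR adjusted p = 0.0746 and 0.0956). Without A549 indisulam replicate 2 the number of higher genes was 3. NFE2L2, at 138 and 134 CPM, did not pass (0.051 ± 0.063, SE, edgeR adjusted p = 0.539).

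The combination lowered most of the NRF2 genes in A549 and raised 6 of them. At an adjusted p under 0.05, 30 of the 37 genes were lower than in untreated A549 cells and 6 were higher, beside 65.2% of all genes tested, 30% lower and 35.1% higher. The median log2 fold change of the 37 genes was -0.47, beside 0.052 over all genes. NFE2L2 was the gene that did not pass, at 120.1 and 118 CPM against 125 and 138 CPM (log2 fold change -0.14 ± 0.063, SE, edgeR adjusted p = 0.0608). KEAP1 was at 56.9 and 51.0 CPM against 91.8 and 85.3 CPM (-0.72 ± 0.076, SE, edgeR adjusted p = 1.15e-06), and SQSTM1 at 1188 and 1169 CPM against 1459.9 and 1363 CPM (-0.26 ± 0.052, SE). The summed level of 5 proliferation markers (MKI67, TOP2A, CCNA2, CCNB1, MCM2) moved with the same groups, from 537 to 573 CPM in untreated cells to 459 to 481 CPM after palbociclib, 441 to 462 after indisulam and 121 to 125 after the combination, and the epithelial sum from 4672 to 5429 CPM up to 10066 to 10532 CPM. Single markers did not all follow these sums. MCM2 was at 50.7 and 48.5 CPM in untreated cells, 76.8 and 77.7 after palbociclib and 57.0 and 60.6 after indisulam. After palbociclib the epithelial sum was 7849 to 7949 CPM, but EPCAM was at 10.9 and 11.2 CPM against 18.3 and 20.6 CPM in untreated cells. The part of these markers in the result was not tested. In bulk samples fewer cells of a type and less RNA per cell cannot be told apart.

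Of the carbonyl reductases 6 of 7 were lower, and of the quinone and detoxification enzymes 4 of 5. AKR1B10 was at 1554 and 1555 CPM after the combination against 6296 and 6667 CPM in untreated cells, 0.240 of that level (log2 fold change -2.06 ± 0.053, SE, edgeR adjusted p = 2.29e-13). NQO1 was at 1119.5 and 1069.8 CPM against 3356 and 3578 CPM (-1.66 ± 0.055, SE, edgeR adjusted p = 3.23e-12). The 2 groups were far apart for each gene, and the replicates within them close. AKR1C1 was at 505 and 473 CPM against 1409 and 1486 CPM (-1.57 ± 0.055, SE), and AKR1C2 at 629.8 and 631 CPM against 1631 and 1666 CPM (-1.39 ± 0.056, SE). AKR1C3 had a log2 fold change of -1.04, CYP4F11 of -1.67 and EPHX1 of -1.06. The AKR1C genes lie side by side on chromosome 10, AKR1C1 and AKR1C2 4.5 kb apart and AKR1C2 and AKR1C3 17.3 kb, and their near-identical sequences make the split of reads between them uncertain. AKR1B1, 68.3 kb from AKR1B10 on chromosome 7, went the other way, at 1255 and 1174 CPM against 506 and 500.0 CPM (1.27 ± 0.055, SE, edgeR adjusted p = 5.65e-11).

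All 6 glutathione genes were lower. GPX2 was at 387 and 372 CPM against 1509 and 1548 CPM (log2 fold change -2.01 ± 0.057, SE, edgeR adjusted p = 7.59e-13), and SLC7A11 at 117 and 115 CPM against 426 and 503 CPM (-2.00 ± 0.072, SE, edgeR adjusted p = 7.21e-12). They stood at 0.248 and 0.250 of their untreated levels, and no library of one group reached the other. The ligase subunits GCLC and GCLM, glutathione reductase (GSR) and the membrane transferase MGST1 had smaller fold changes, from -0.47 to -0.21. The call of GCLC was lost when only the compared groups were fitted (edgeR adjusted p = 0.0503) and without A549 combination replicate 1 (-0.18, edgeR adjusted p = 0.0771). PIR, at 19.2 and 20.9 CPM against 83.6 and 95.1 CPM, had the lowest fold change of the 37 genes (-2.15 ± 0.084, SE, edgeR adjusted p = 1.99e-11). NR0B1 was at 16.7 and 16.7 CPM against 60.8 and 56.1 CPM (-1.81 ± 0.080, SE).

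The NADPH and pentose phosphate genes were lower as well. PGD of the pentose phosphate pathway, which forms NADPH, was at 1276 and 1273 CPM against 2588 and 2616 CPM (log2 fold change -1.03 ± 0.051, SE, edgeR adjusted p = 2.49e-10). Transaldolase (TALDO1), TKT and malic enzyme (ME1) followed with -0.47, -0.42 and -0.25. In the thioredoxin group TXN and PRDX1 were lower (-0.52 and -0.44), while TXNRD1, thioredoxin reductase, was higher, at 3143 and 3186 CPM against 2404 and 2749.6 CPM (0.30 ± 0.061, SE, edgeR adjusted p = 0.000667). SRXN1, at 0.355 and 0.515 CPM, was at least 2.15-fold higher, but its call was lost in 7 other settings, among them TMM factors (edgeR adjusted p = 0.0542), DESeq2 (adjusted p = 0.179) and the omission of any of the 4 libraries (edgeR adjusted p = 0.0549 to 0.213).

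Of the 3 heme and iron genes, HMOX1 and FTH1 were higher and FTL lower. HMOX1 was at 89.6 and 79.6 CPM against 16.4 and 14.4 CPM, 5.48-fold higher and the largest rise of the 37 genes (log2 fold change 2.45 ± 0.10, SE, edgeR adjusted p = 2.09e-11). FTH1 was at 4072 and 3993 CPM against 3503 and 3464 CPM (0.21 ± 0.056, SE, edgeR adjusted p = 0.00417), a rise lost with TMM factors (0.13, edgeR adjusted p = 0.0776). FTL was at 7755 and 7322 CPM against 9048 and 9305 CPM (-0.28 ± 0.051, SE). UGT1A6 was the sixth higher gene, at 14.6 and 15.7 CPM against 10.3 and 9.80 CPM (0.60 ± 0.13, SE, edgeR adjusted p = 0.000779). It shares 36.2% of its exon bases with other UGT1A genes of the same strand, and FTH1 overlaps BEST1 on the other strand over 63.2%, so both values are less certain.

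**Figure D2:**
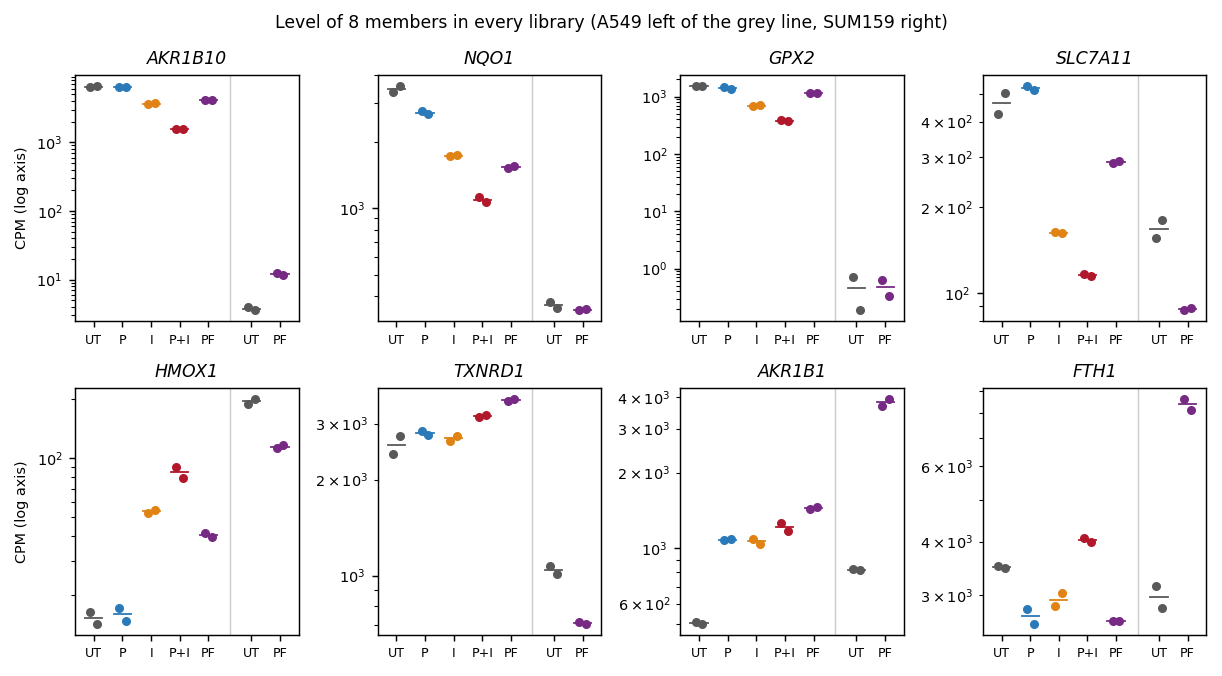
CPM of 8 of the genes in every library on log axes, for A549 untreated (UT), palbociclib (P), indisulam (I), the combination (P+I) and PF-06873600 (PF), and for SUM159 untreated and PF-06873600 right of the grey line. Points are libraries and bars the mean of 2. AKR1B10 is at 1554 and 1555 CPM in the combination libraries and 6296 and 6667 CPM in untreated A549, and HMOX1 is at 89.6 and 79.6 and 16.4 and 14.4 CPM.

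The combination was also set against each single drug. Over palbociclib, 27 of the 37 genes were lower and 5 higher at an adjusted p under 0.05 (60.4% of all genes, 26.9% lower and 33.5% higher), with a median log2 fold change of -0.41. SLC7A11 had -2.18 ± 0.072 (SE, edgeR adjusted p = 5.14e-12), from 534 and 516 CPM after palbociclib to 117 and 115 CPM. AKR1B10 had -2.05 ± 0.052 (SE), from 6498 and 6398 CPM, and GPX2 -1.90 ± 0.057 (SE), from 1470.1 and 1368 CPM. The 3 largest rises over palbociclib were those of HMOX1 (2.40 ± 0.10, SE), UGT1A6 (0.85 ± 0.13, SE) and FTH1 (0.59 ± 0.056, SE). HMOX1 was at 17.4 and 14.8 CPM and FTH1 at 2786 and 2573 CPM after palbociclib, below both combination libraries. The rises of TXNRD1 and AKR1B1 over palbociclib were lost with TMM factors (0.082 and 0.076), with DESeq2, and without A549 palbociclib replicate 1 or A549 combination replicate 1, each of which left 3 higher genes. The lower call of SQSTM1 was lost without any of the 4 libraries (edgeR adjusted p up to 0.170), that of ME1 without any but A549 combination replicate 2 (up to 0.180), that of FTL without A549 combination replicate 2 (0.231) or either palbociclib library, those of GCLC and GCLM without A549 combination replicate 1 (0.0939 and 0.0511) and that of OSGIN1 without A549 combination replicate 2 (0.0688).

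Over indisulam, 23 of the 37 genes were lower and 7 higher (46% of all genes, 23.9% lower and 22% higher), with a median log2 fold change of -0.30, beside -0.022 over all genes. NR0B1 was at 16.7 and 16.7 CPM against 40.5 and 40.6 CPM after indisulam (log2 fold change -1.28 ± 0.082, SE, edgeR adjusted p = 1.55e-08). AKR1B10 (-1.23 ± 0.051, SE) and PIR (-1.08 ± 0.088, SE) followed. All 3 heme and iron genes were higher than after indisulam, HMOX1 by 0.66 ± 0.084 (SE), FTH1 by 0.46 ± 0.056 (SE) and FTL by 0.19 ± 0.051 (SE). UGT1A6 was at 14.6 and 15.7 CPM against 9.33 and 11.7 CPM (0.53 ± 0.13, SE). The higher calls of FTL (edgeR adjusted p = 0.0665), SQSTM1 (edgeR adjusted p = 0.0816) and AKR1B1 (edgeR adjusted p = 0.112) were lost without A549 combination replicate 1, which left 4. Those of UGT1A6 (0.37, edgeR adjusted p = 0.0506) and TXNRD1 (0.21, edgeR adjusted p = 0.0542) were lost without A549 indisulam replicate 1, and those of SQSTM1 (edgeR adjusted p = 0.0912) and AKR1B1 (edgeR adjusted p = 0.0997) also without A549 indisulam replicate 2. KEAP1 was lower than after either single drug, with log2 fold changes of -0.45 ± 0.077 (SE) over palbociclib and -0.45 ± 0.077 (SE) over indisulam. The small lower call of NFE2L2 (-0.19 ± 0.063, SE, edgeR adjusted p = 0.0216) was lost with DESeq2 and without any of the 4 libraries (edgeR adjusted p = 0.0563 to 0.120). UGDH did not pass, with a log2 fold change of 0.064 ± 0.054 (SE, edgeR adjusted p = 0.356).

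The interaction of the 2 drugs measures how far the combination differs from the sum of both single effects on the log2 scale. It was negative for 16 and positive for 5 of the 37 genes at an adjusted p under 0.05, beside 25.2% of all genes tested, 14.5% negative and 10.7% positive. AKR1B10, not lowered by palbociclib (-0.0075) and lowered by indisulam (-0.83), had an interaction of -1.23 ± 0.072 (SE, edgeR adjusted p = 2.73e-08). AKR1C1, with 0.025 and -0.49 for the single drugs, had -1.10 ± 0.076 (SE, edgeR adjusted p = 1.10e-07). In all, 6 of the 7 carbonyl reductases had a negative interaction. For AKR1B1 the single effects were both rises, and the interaction was -0.91 ± 0.077 (SE), with 1255 and 1174 CPM after the combination. SRXN1 had -2.82 ± 0.78 (SE), from counts near the floor, and lost its call without A549 palbociclib replicate 2 (edgeR adjusted p = 0.0646), A549 indisulam replicate 2 (edgeR adjusted p = 0.103) or A549 combination replicate 1 (edgeR adjusted p = 0.0551).

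The positive interactions were those of FTH1, UGT1A6, HMOX1, FTL and SQSTM1. FTH1 was lower after palbociclib (-0.38) and after indisulam (-0.25) and higher after both, with an interaction of 0.84 ± 0.079 (SE, edgeR adjusted p = 2.61e-06). UGT1A6 had 0.78 ± 0.19 (SE), HMOX1 0.60 ± 0.14 (SE), FTL 0.35 ± 0.072 (SE) and SQSTM1 0.30 ± 0.074 (SE). All 3 heme and iron genes were thus among the 5. Without A549 untreated replicate 1 the number of positive interactions was 8. NQO1 had a small negative interaction (-0.30 ± 0.076, SE, edgeR adjusted p = 0.00907), and those of TKT and CBR1 were lost in several settings.

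PF-06873600, given for 7 days, also lowered most NRF2 genes in A549. At an adjusted p under 0.05, 28 of the 37 genes were lower and 6 higher than in untreated cells, beside 56.3% of all genes tested, 27.8% lower and 28.5% higher. The median log2 fold change was -0.39, and -0.0082 over all genes. NR0B1 fell furthest, to 21.3 and 22.1 CPM from 60.8 and 56.1 CPM (log2 fold change -1.43 ± 0.078, SE, edgeR adjusted p = 1.42e-09). NQO1 was at 1526 and 1555 CPM against 3356 and 3578 CPM (-1.17 ± 0.054, SE, edgeR adjusted p = 2.69e-10), and AKR1C2 at 769.9 and 753 CPM against 1631 and 1666 CPM (-1.11 ± 0.056, SE). In all 3 the treated libraries lay below the untreated ones. The sum of the proliferation markers was 344 to 365 CPM in these libraries and the epithelial sum 11769 to 11845 CPM. Most of the epithelial sum was KRT8 (5631 and 5680 CPM) and KRT18 (5442 and 5467 CPM). EPCAM and CDH1 went the other way, at 8.35 and 7.73 CPM and at 93.1 and 98.1 CPM. In untreated cells they were at 18.3 and 20.6 CPM and at 160 and 152 CPM. The part of these markers in the result was not tested.

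By role, all 6 glutathione genes, all 4 NADPH and pentose phosphate genes and all 5 genes of the quinone and detoxification group were lower. SLC7A11 was at 287 and 292 CPM (-0.68 ± 0.068, SE), GPX2 at 1163 and 1173 CPM (-0.39 ± 0.055, SE) and PGD at 1262 and 1287 CPM (-1.03 ± 0.051, SE). AKR1B10 was at 4182 and 4180.4 CPM (-0.63 ± 0.051, SE) and PIR at 43.6 and 43.1 CPM (-1.04 ± 0.077, SE). Dose and time differ between PF-06873600 and the combination, so these values stand beside those of the combination without a comparison. NFE2L2 was lower too, at 100.2 and 108 CPM against 125 and 138 CPM (-0.34 ± 0.064, SE, edgeR adjusted p = 0.000437), as was KEAP1, at 65.2 and 60.1 CPM (-0.50 ± 0.075, SE). SQSTM1, TXN and CBR3 did not pass.

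The higher genes were SRXN1, AKR1B1, HMOX1, TXNRD1, OSGIN1 and CBR1. AKR1B1 was at 1426 and 1461 CPM against 506 and 500.0 CPM, 2.87-fold higher (log2 fold change 1.52 ± 0.055, SE, edgeR adjusted p = 2.37e-11). HMOX1 was at 41.5 and 39.4 CPM against 16.4 and 14.4 CPM (1.39 ± 0.10, SE, edgeR adjusted p = 3.27e-08), and TXNRD1 at 3538 and 3581 CPM against 2404 and 2749.6 CPM (0.47 ± 0.061, SE, edgeR adjusted p = 1.53e-05). SRXN1, at 0.842 and 0.742 CPM, was at least 3.92-fold higher. OSGIN1, at 82.4 and 54.9 CPM in the 2 untreated libraries, was at 88.7 and 92.6 CPM, and its log2 fold change of 0.40 became 0.14 without A549 untreated replicate 2, where the call was lost (edgeR adjusted p = 0.111), as it was without A549 PF-06873600 replicate 2 (edgeR adjusted p = 0.0875). The call of CBR1 (0.16) was lost in 7 other settings, including DESeq2 (adjusted p = 0.0565) and the omission of A549 untreated replicate 2 (edgeR adjusted p = 0.0942) or of either treated library (edgeR adjusted p = 0.128 and 0.156). Among the lower genes GCLM (-0.19) had -0.092 without A549 untreated replicate 2 (edgeR adjusted p = 0.192), and PRDX1 (-0.15) had -0.078 there (edgeR adjusted p = 0.224). Both lost their calls without either treated library as well, as did GCLC and FTL without A549 PF-06873600 replicate 2 (edgeR adjusted p = 0.0579 and 0.0607) and UGT1A6 without replicate 1 (edgeR adjusted p = 0.0858).

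In SUM159 the same drug at the same dose and time split the NRF2 genes. Of the 34 genes tested 14 were higher and 14 lower at an adjusted p under 0.05, beside 73.7% of all 15055 genes tested, 38.1% higher and 35.6% lower, so both shares are near those of all genes. NR0B1, UGT1A6 and SRXN1 had too few counts to be tested. The median log2 fold change of the 34 genes was 0.056 and that of all genes 0.020. The mesenchymal sum moved from 7333 to 7776 CPM up to 17569 to 17680 CPM and the proliferation sum from 2030 to 2196 CPM down to 718 to 719 CPM between the same groups, and their part in the result was not tested.

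The higher genes were mainly carbonyl reductases, ferritin and SQSTM1. AKR1B1 was at 3689 and 3934 CPM against 827 and 816 CPM in untreated SUM159 cells, 4.64-fold higher (log2 fold change 2.21 ± 0.079, SE, edgeR adjusted p = 4.43e-12). SQSTM1 was at 1178 and 1179 CPM against 324 and 306 CPM (1.90 ± 0.066, SE, edgeR adjusted p = 2.99e-12), and AKR1B10 at 12.5 and 11.5 CPM against 3.92 and 3.57 CPM (1.68 ± 0.15, SE, edgeR adjusted p = 9.09e-08). Even so, AKR1B10 stayed far under the 6296 and 6667 CPM of untreated A549 cells. FTH1 was at 8611 and 8135 CPM against 3149.7 and 2801 CPM (1.49 ± 0.093, SE, edgeR adjusted p = 1.67e-09), and FTL at 1994 and 1975 CPM against 1364 and 1312 CPM (0.57 ± 0.071, SE). AKR1C1, AKR1C3 and AKR1C2 had log2 fold changes of 1.36, 1.09 and 0.85, and CYP4F11 of 1.10. Among the carbonyl reductases 6 of 7 were higher and CBR1 lower.

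The lower genes included members of the glutathione, the thioredoxin and the NADPH and pentose phosphate groups. In the last of these groups PGD and TKT were lower, while ME1 and TALDO1 did not pass. UGDH was at 75.6 and 75.4 CPM against 173 and 159.6 CPM (log2 fold change -1.14 ± 0.057, SE, edgeR adjusted p = 1.59e-10). SLC7A11 was at 87.0 and 88.8 CPM against 156 and 180.2 CPM (-0.93 ± 0.066, SE, edgeR adjusted p = 7.30e-09), and TKT at 506 and 505 CPM against 943 and 890.5 CPM (-0.86 ± 0.063, SE, edgeR adjusted p = 1.16e-08). In these genes every treated library lay below every untreated one. GCLM and GSR were lower (-0.58 and -0.40) while GCLC was higher (0.39), and all 3 thioredoxin genes tested were lower, TXNRD1 from 1069 and 1010.3 CPM to 713 and 707 CPM (-0.55 ± 0.065, SE). HMOX1 was at 112 and 117 CPM against 189 and 199.6 CPM (-0.76 ± 0.055, SE, edgeR adjusted p = 9.61e-09). NQO1, at 346 and 350.1 CPM against 376 and 356 CPM, did not pass (-0.072 ± 0.057, SE, edgeR adjusted p = 0.268). NFE2L2 was at 121 and 116 CPM against 163 and 151 CPM (-0.40 ± 0.057, SE) and KEAP1 at 63.6 and 68.0 CPM against 90.9 and 87.4 CPM (-0.44 ± 0.059, SE), both lower. The call of CBR1 was lost with DESeq2 (adjusted p = 0.0680), without SUM159 untreated replicate 1 (edgeR adjusted p = 0.0595) and without either treated library (edgeR adjusted p = 0.140 and 0.125), and that of CBR3 with DESeq2 (adjusted p = 0.0605).

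Whether the 2 lines responded differently to PF-06873600 was tested as an interaction in the joint model. The response was more positive in SUM159 for 19 and more negative for 5 of the 37 genes at an adjusted p under 0.05, beside 52.7% of all genes tested, 25.6% more positive and 27.2% more negative. The median difference was 0.42 on the log2 scale, beside 0.027 over all genes. For 11 of the 34 genes tested in both lines, PF-06873600 lowered the level in A549 and raised it in SUM159, each past the threshold: GCLC, FTH1, FTL, AKR1B10, AKR1C1, AKR1C2, AKR1C3, EPHX1, CYP4F11, TRIM16 and TRIM16L. Of all 13605 genes tested in both lines 9.31% did so. The largest differences were those of AKR1B10 (2.31 ± 0.14, SE, edgeR adjusted p = 9.13e-09), AKR1C1 (2.06 ± 0.10, SE, edgeR adjusted p = 6.56e-10) and AKR1C2 (1.96 ± 0.090, SE, edgeR adjusted p = 6.09e-10). AKR1C1 went from 1409 and 1486 to 889 and 893 CPM in A549 and from 44.5 and 45.8 to 112 and 119.5 CPM in SUM159, and AKR1C2 from 74.2 and 77.0 to 139 and 134 CPM in SUM159. The levels of these genes differed between the untreated lines by far more than either response.

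For 3 genes the opposite held, with higher levels in treated A549 and lower levels in treated SUM159: HMOX1, TXNRD1 and CBR1, beside 10.5% of all genes tested in both lines. HMOX1 had a difference of -2.15 ± 0.11 (SE, edgeR adjusted p = 1.83e-09) and TXNRD1 of -1.02 ± 0.11 (SE, edgeR adjusted p = 1.58e-06). UGDH fell in both lines, further in SUM159 (-0.48 ± 0.10, SE, edgeR adjusted p = 0.000639). SQSTM1 did not pass in A549 (-0.044 ± 0.052, SE) and rose in SUM159, a difference of 1.95 ± 0.093 (SE, edgeR adjusted p = 8.97e-10). NFE2L2 and KEAP1 fell in both lines, and their differences of -0.063 ± 0.10 and 0.064 ± 0.10 (SE) did not pass. NQO1, which passed as lower in A549 and did not pass in SUM159, differed between the lines by 1.10 ± 0.094 (SE, edgeR adjusted p = 2.28e-07). Without A549 untreated replicate 2 the number of more negative responses was 9. The difference of TALDO1 (0.26) was lost with TMM factors and without any of 5 single libraries.

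**Figure D3:**
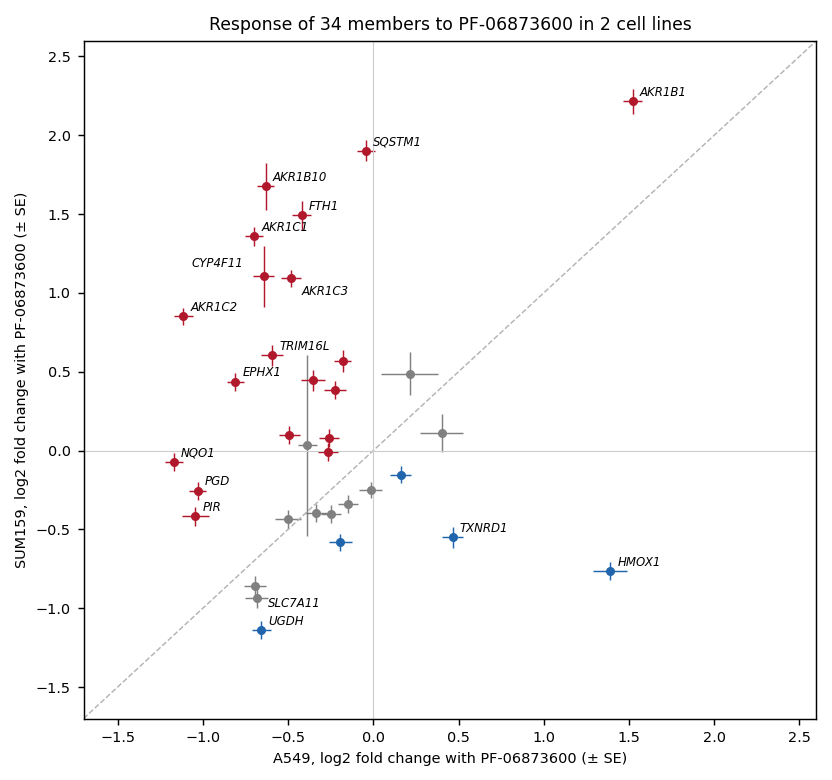
Log2 fold change with PF-06873600 over untreated cells in A549 (horizontal axis) and SUM159 (vertical axis) for the 34 genes tested in both lines, with bars of ± 1 SE and a dashed line of equal response. Red and blue points responded more positively or more negatively in SUM159 than in A549 at an adjusted p under 0.05, and grey points did not pass. AKR1B10, FTH1 and the AKR1C genes lie at the upper left, HMOX1 at the lower right and AKR1B1 at the upper right, with 1.52 in A549 and 2.21 in SUM159.

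Summed over the 37 genes, the level in A549 was 44619 and 46128 CPM in untreated cells, 41884 and 41224 after palbociclib, 33873 and 34212 after indisulam, 30141 and 29226 after the combination and 34843 and 35060 after PF-06873600. The combination libraries were lowest and no treated library reached the untreated ones. The mean sums were 0.916, 0.750, 0.654 and 0.770 of the untreated mean, in the same order. In SUM159 the sum was 11468 and 10807 CPM before and 20121 and 19875 CPM after PF-06873600, a ratio of 1.80. Without FTH1 and FTL the ratio in SUM159 was 1.41, and without AKR1B1 as well, a sum chosen after its values were seen, the other 34 genes went from 6128 and 5878 to 5827 and 5832 CPM, a ratio of 0.971. In the combination in A549 the same ratios were 0.554 and 0.525. These sums are a description, without a test.

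**Figure D4:**
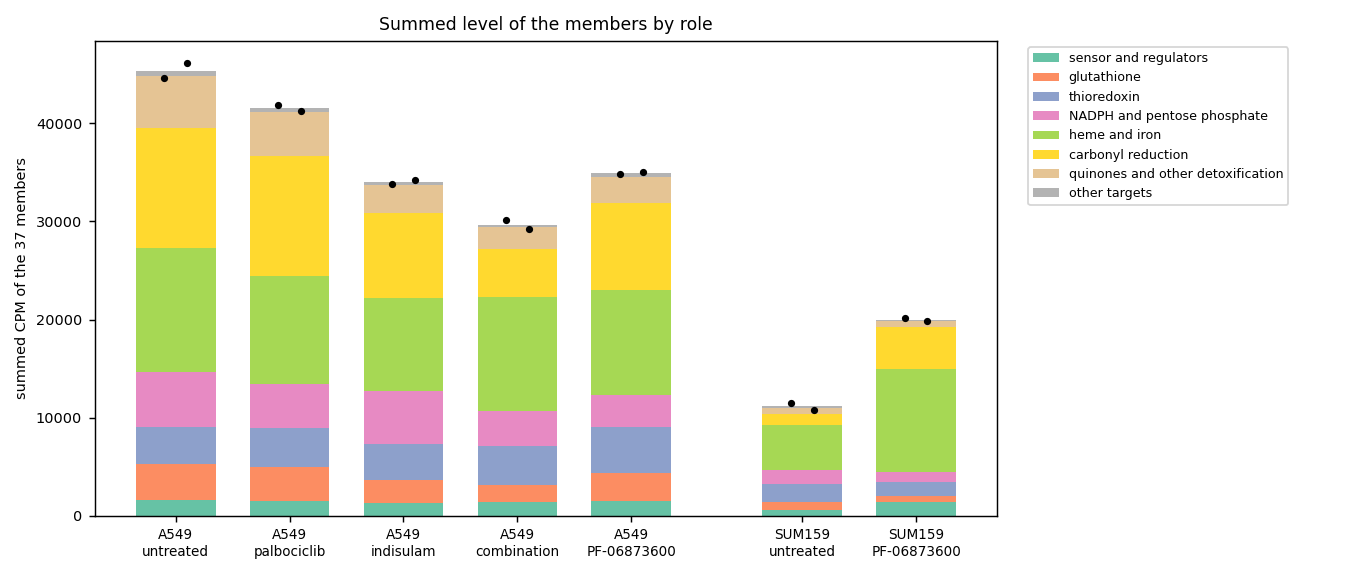
Stacked bars of the mean summed CPM of the 37 genes in each group (vertical axis), coloured by role, with the 2 libraries of the group as points. The A549 bars are highest in untreated cells and lowest after the combination, and the SUM159 bars show a larger heme and iron segment after PF-06873600.

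**Figure D5:**
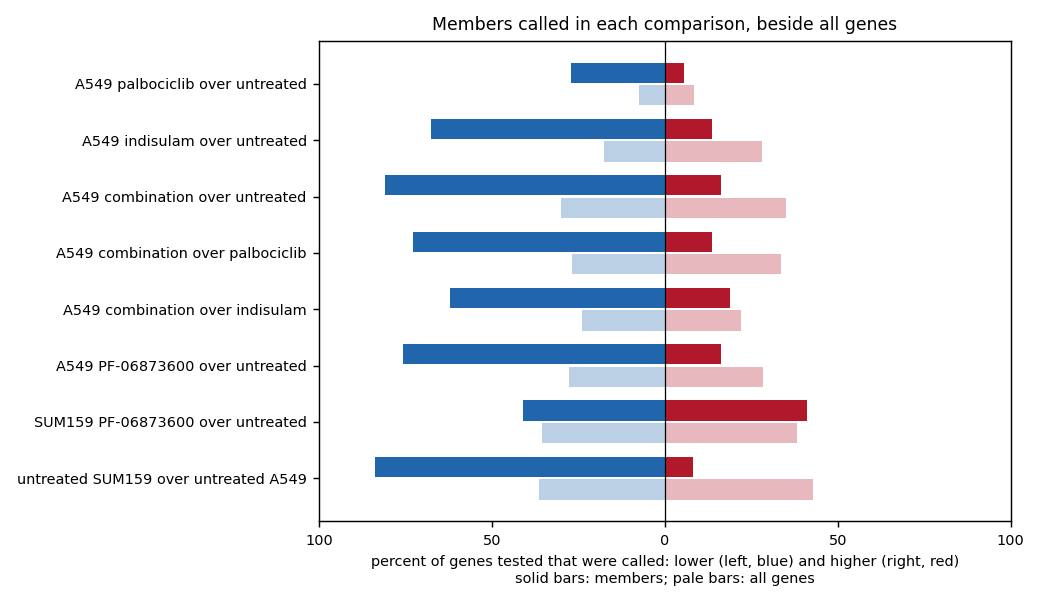
Percent of genes called lower (left, blue) and higher (right, red) in each of 8 comparisons, for the NRF2 genes (solid bars) and all genes tested (pale bars). In the comparisons within A549 the solid blue bars are longer than the pale ones, 30 of 37 against 30% in the combination, while in SUM159 treated with PF-06873600 the 14 and 14 of 34 lie near 35.6% and 38.1%.

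A pair of further lists were read in the same fits, 18 partners and regulators of NRF2 and 35 other genes linked to it. In the combination 9 of the 18 regulators were higher and 4 lower than in untreated A549 cells, and of the 33 other genes tested 4 were higher and 19 lower, beside 35.1% higher and 30% lower of all genes. MAFK, a small MAF protein that pairs with NRF2 or with its repressor BACH1, was at 35.7 and 26.5 CPM in untreated cells, 36.2 and 40.6 after palbociclib, 95.6 and 82.5 after indisulam, 194 and 200.4 after the combination and 115 and 114 after PF-06873600. Its log2 fold change was 2.66 ± 0.11 (SE, edgeR adjusted p = 2.86e-11) in the combination and 1.88 ± 0.11 (SE, edgeR adjusted p = 2.83e-09) with PF-06873600, the largest of both lists in each. NFE2L3, an NRF2 relative, was at 5.85 and 5.87 CPM and 15.5 and 15.5 CPM after the combination (1.40 ± 0.13, SE). The lowest were the carboxylesterase CES1 (-1.87 ± 0.21, SE), the transporter ABCC3 (-1.67 ± 0.091, SE) and ALDH3A1, an aldehyde dehydrogenase, at 2215 and 2148 CPM against 7362 and 6114 CPM (-1.63 ± 0.072, SE, edgeR adjusted p = 7.68e-11). BACH2 also passed (2.82-fold, edgeR adjusted p = 0.0378), at under 1 CPM in each A549 library.

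With the single drugs, palbociclib raised 7 and lowered 7 of the 51 further genes tested in A549 (8.3% and 7.4% of all genes), with CES1 lowest (-1.36 ± 0.20, SE) and BACH1 highest (0.50 ± 0.067, SE, edgeR adjusted p = 0.000151), at 129 and 125 CPM against 83.7 and 94.9 CPM. Indisulam raised 11 and lowered 17 (28% and 17.5% of all genes), with the transferase GSTA4 lowest (-0.97 ± 0.13, SE) and MAFK highest (1.52 ± 0.11, SE). With PF-06873600, 13 of the 51 were higher and 24 lower in A549 (28.5% and 27.8% of all genes), where CES1 was again lowest (-1.47 ± 0.20, SE). ALDH3A1 did not follow the reductases there, at 9677 and 9809 CPM against 7362 and 6114 CPM.

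In SUM159 PF-06873600 raised 22 and lowered 12 of the 49 further genes tested, beside 38.1% and 35.6% of all genes. Of the 31 other NRF2-linked genes 17 were higher and 4 lower, led by ALDH3A1, at 24.3 and 20.7 CPM against 4.04 and 4.20 CPM (2.44 ± 0.13, SE, edgeR adjusted p = 4.44e-10), and ABCC3, at 357 and 357 CPM against 90.4 and 112 CPM (1.82 ± 0.079, SE, edgeR adjusted p = 3.41e-11). Of the 18 regulators 5 were higher and 8 lower. The mitochondrial phosphatase PGAM5, a KEAP1 partner, was at 55.7 and 50.5 CPM against 145 and 134 CPM (-1.39 ± 0.064, SE), and CUL3, the scaffold of the ligase that KEAP1 serves, had -0.69 ± 0.057 (SE). MAFK was at 39.0 and 42.1 CPM before and 38.8 and 41.0 CPM after treatment, and the response of MAFK differed between the lines (-1.90 ± 0.15, SE, edgeR adjusted p = 9.58e-08). Between the untreated lines, 32 of the 51 further genes tested were lower in SUM159 and 13 higher (36.4% and 42.8% of all genes). In the remaining tests on the 51 genes the counts were 14 higher and 20 lower for the combination over palbociclib (33.5% and 26.9% of all genes) and 8 higher and 15 lower over indisulam (22% and 23.9%). There were 6 positive and 15 negative interactions of both drugs (10.7% and 14.5% of all genes), and 26 more positive and 9 more negative responses to PF-06873600 in SUM159 (25.6% and 27.2%).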

How the data were processed

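RNA sequencing of 14 libraries (A549 in 5 groups, SUM159 in 2, with 2 libraries each) was analysed. The authors prepared strand-specific poly(A) libraries and aligned their single-end reads against hg38. They deposited raw read counts, 1 table per library, with 60683 Ensembl identifiers and 9 summary lines. The submitters' processing notes name HISAT2 2.2.1 and HTSeq with GRCh38. The annotation release and strand setting are not given in the sources used here. Reads with low mapping quality or ambiguous assignment were set aside by the authors' counting. This lowers the counts of near-identical genes (AKR1C1 to AKR1C3, TRIM16 and TRIM16L, ferritin genes with pseudogenes). It may also lower those of SRXN1, which shares most of its exon bases with a readthrough gene. Symbols, coordinates and exon lengths, merged over all transcripts of a gene, came from GENCODE release 44 on hg38. Group labels came from the sample titles and treatment labels.

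The 37 genes and the further lists were chosen with earlier results of these data known. Libraries held 13060374 to 21149256 counts on genes, and the floor of 3 counts reflects counting error only. Genes were kept with filterByExpr, total counts served as library sizes, as in the study's methods, and edgeR 4.0.16 in R 4.3.3 tested group means with its quasi-likelihood F test and Benjamini-Hochberg adjustment at 0.05, in models of 10 A549 libraries (15780 genes), 4 SUM159 libraries (15055) and 8 libraries of both lines (16707). Standard errors were obtained as the size of the log2 fold change over the root of its F. A fold change against a group with at most 3 counts in each library was replaced by a bound. With 2 libraries against 2 an exact permutation test cannot give a two-sided p under 0.33. In each comparison, library values are given for NFE2L2, KEAP1 and NQO1 where a result turns on them and for up to 3 genes per direction with the largest change past the threshold, and further genes are examples by role. The highest-ranked few of the further lists are named. Alternatives were TMM factors, total counts without the 37 genes, DESeq2 1.42.0, no filter, a mean of at least 50 counts, the compared groups alone, the replicate number as a block, and each library left out. The scripts were tested on simulated data. Tables and plots used pandas 2.3.3 and matplotlib 3.10.9 in Python 3.11.15.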

Additional observations from a re-analysis of the deposited data

Results flagged for a closer look

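For 24 of the 37 genes the response to PF-06873600 differed between the 2 lines by the interaction test (edgeR quasi-likelihood F test, Benjamini-Hochberg adjusted p under 0.05), where 52.7% of all genes differed. Values are log2 fold changes in SUM159 minus those in A549, followed by their standard error. More positive in SUM159 were the carbonyl reductases AKR1B10 (2.31 ± 0.14), AKR1C1 (2.06 ± 0.10), AKR1C2 (1.96 ± 0.090), AKR1C3 (1.57 ± 0.095) and AKR1B1 (0.69 ± 0.092). SQSTM1 (1.95 ± 0.093), FTH1 (1.91 ± 0.11) and FTL (0.75 ± 0.094) were more positive as well. Among other detoxifying enzymes these were CYP4F11 (1.75 ± 0.19), EPHX1 (1.24 ± 0.091) and NQO1 (1.10 ± 0.094). TRIM16L (1.20 ± 0.11), TRIM16 (0.80 ± 0.11) and PIR (0.63 ± 0.11) belonged to the same group. It also held PGD (0.77 ± 0.092), ME1 (0.59 ± 0.10) and TALDO1 (0.26 ± 0.090) of the NADPH and pentose phosphate genes. The glutathione genes GCLC (0.61 ± 0.10) and MGST1 (0.34 ± 0.10) completed it. More negative in SUM159 were HMOX1 (-2.15 ± 0.11), TXNRD1 (-1.02 ± 0.11), UGDH (-0.48 ± 0.10), GCLM (-0.39 ± 0.10) and CBR1 (-0.31 ± 0.087). The lines also differ in untreated level, medium and proliferation markers, which cannot be told apart from the line. Groups of 2 libraries were too small for a search for outlying libraries.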

How the results depend on the processing

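Of 281 calls on the 37 genes over the 10 comparisons, 234 held in every setting that gave the gene a value. A setting that left the gene out was not counted against its call. At a mean of at least 50 counts 276 of the 281 calls had a value, and with DESeq2 279 had one. Of 3253 alternative values of these calls 3113 stayed past the threshold, 140 did not and 0 changed sign. Counted in this way, calls held for 7 of 12 genes with palbociclib, 24 of 30 with indisulam and 33 of 36 with the combination. With PF-06873600 they held for 27 of 34 in A549 and 26 of 28 in SUM159. TMM factors shifted the median of all genes by at most -0.093 on the log2 scale.

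Counts that moved by over 1.5 times were as follows. Genes higher with palbociclib (2) numbered 1 with DESeq2, 1 at a mean of at least 50 counts, 1 with the compared groups alone and 1 to 4 leaving out single libraries. Genes lower with palbociclib (10) numbered 6 with the compared groups alone and 8 to 16 leaving out single libraries. Genes higher with indisulam (5) numbered 3 with TMM factors, 2 with DESeq2, 2 with the compared groups alone and 3 to 4 leaving out single libraries. Genes higher in the combination than after palbociclib (5) numbered 3 with TMM factors, 3 with DESeq2 and 3 to 4 leaving out single libraries. Leaving out single libraries gave 4 to 7 genes higher in the combination than after indisulam, 5 to 8 positive interactions of the drugs and 5 to 9 more negative responses in SUM159. The cause was not tested.

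Ratios of the summed level to untreated cells without FTH1 and FTL were 0.936 for palbociclib, 0.554 for the combination, 0.741 for PF-06873600 in A549 and 1.41 in SUM159. Without AKR1B1 as well, a setting chosen after seeing the data, they were 0.728 for indisulam, 0.525 for the combination, 0.708 for PF-06873600 in A549 and 0.971 in SUM159, and the sum of the other 34 genes in SUM159 did not rise. With TMM factors they were 0.710 for indisulam, 0.617 for the combination and 0.775 for PF-06873600 in A549.

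The labels tie same-numbered libraries together by the number alone. Correlations of their deviations, each group with untreated cells, were 0.17 for indisulam, 0.039 for the combination, 0.041 for PF-06873600 in A549 and 0.043 in SUM159. For palbociclib the correlation was -0.22. Whether same-numbered libraries share a batch was not tested. With the replicate block, 3 calls were lost, those of SQSTM1 (-0.13, edgeR adjusted p = 0.0598) and FTL (-0.13, 0.0582) in the combination over palbociclib and of PRDX1 (-0.15, 0.0565) with PF-06873600 in A549, and no other. With the palbociclib numbers crossed in the block, a setting chosen after seeing the data, 1556 genes were higher and 1467 lower with palbociclib, beside 1258 and 1079 with the block as numbered and 1310 and 1168 without it. With 2 libraries per group, changes in genes near the floor, SRXN1 above all, are poorly resolved.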

Other observations

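The untreated pairs of both lines differed more than the treated pairs. Per degree of freedom, a chi-square over genes between both libraries was 9.57 for untreated A549 and 9.05 for untreated SUM159. It was 1.61 to 5.04 for treated A549 pairs and 2.29 for treated SUM159. In the untreated A549 pair OSGIN1 stood at 82.4 and 54.9 CPM, TKT at 2475 and 2147 CPM and TXNRD1 at 2404 and 2749.6 CPM. Fold changes against untreated cells rest on these pairs in either line.

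ALDH3A1, a gene outside the 37, was at 7362 and 6114 CPM in untreated A549 cells, 9062 and 9266 CPM after palbociclib, 4490.0 and 4348 CPM after indisulam, 2215 and 2148 CPM after the combination and 9677 and 9809 CPM after PF-06873600. The interaction of the 2 drugs on it was -1.46 ± 0.10 on the log2 scale (SE, edgeR adjusted p = 1.09e-07), the most negative of the further genes that passed. BACH1, a repressor that competes for antioxidant response elements, had an interaction of -0.84 ± 0.10 (SE, edgeR adjusted p = 1.71e-05), higher than untreated after palbociclib and at 68.2 and 64.7 CPM after the combination.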
